A study of Bos taurus with 12 samples.

Results

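The core adipogenic transcription factors are DNA-binding proteins that drive, or hold back, the switch of a precursor cell to the gene programme of a fat cell. Described here are 9 of them, PPARG, CEBPA, CEBPB, CEBPD, ZNF423, EBF1, GATA2, RXRA and NR1H3, which were picked out by name from the 33714 rows of the mRNA table. They and the gene lists below were chosen with earlier results of these data known, so counts among them are descriptions only. Of the 9, 8 have a row of their own and PPARG was read from a row that it does not have to itself. RNA came from intramuscular preadipocytes of Qinchuan calves, isolated from the longissimus dorsi, with 3 libraries on each of 4 days. The 0 d cells were uninduced. The 3 d, 6 d and 9 d cells had received dexamethasone (a glucocorticoid), 0.5 mM IBMX (which raises cAMP) and insulin for 48 h and insulin alone after that, in the serum medium that all 4 groups share.

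Expression was given as FPKM, the fragments of a transcript scaled by its length and by the mapped fragments of the library, so that levels of different genes can be set side by side. The sum over all mRNAs was 1221194 to 1371794 FPKM per library, and the number of reads behind a value is unknown. The labels call the cells intramuscular adipocytes. Adipocyte markers summed to 39.7 to 154 FPKM per library, and the adipocyte hormone ADIPOQ reached at most 1.64 FPKM. Markers of preadipocytes and mesenchymal cells summed to 13640 to 50240 FPKM, most of it from DCN (mean 32080), a matrix gene of many stromal cells, while DLK1 (mean 0.0367) and CD34 (mean 0.198) were near 0. Differences between days were tested with limma on log2(FPKM + 0.1) for the 15402 mRNAs with a mean of at least 0.1 FPKM, and a gene was called when its log2 fold change exceeded 1 in either direction with an adjusted p under 0.05. The libraries of a day are described as biological replicates and the cells of all days as a single batch, without a statement on separate animals or cultures, so p-values measure only the spread between these libraries. In bulk RNA, fewer cells that express a gene and less of its RNA per cell cannot be told apart.

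CEBPB and CEBPD are known as the early factors, which glucocorticoid and cAMP signals induce within hours and which then activate PPARG and CEBPA. PPARG, a nuclear receptor bound to DNA together with RXRA, and CEBPA keep each other expressed and turn on the genes of lipid storage. EBF1 and ZNF423 act in committed precursors, GATA2 holds precursors back from differentiation, and NR1H3 (LXRα) is the oxysterol receptor that controls cholesterol efflux and lipogenesis.

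The factors were mostly at their highest at 3 d. Over all tested mRNAs, 37.1% had their highest mean at 3 d, and in 18.1% all 3 libraries of 3 d lay above the 9 others. Among the 9 factors both numbers were 8, and the exception was ZNF423, which was highest before induction. CEBPA passed the filter on low values through its 3 d libraries alone, and without it both numbers were 7 of 8. Of 18 general transcription factors taken for comparison, 10 also had their highest mean at 3 d. After FPKM were rescaled between libraries by their median ratio, 7 factors (6 without CEBPA) kept 3 d libraries above all others, since the lowest 3 d library of CEBPB (426) then fell below its highest 9 d library (445). In level they were spread over nearly the whole range of the 15402 tested mRNAs, of which 99.5% had a lower mean than CEBPD, 96.9% than CEBPB, 90.0% than EBF1, 78.2% than ZNF423, 73.7% than the PPARG row, 63.8% than RXRA, 54.6% than NR1H3, 42.9% than GATA2 and 0.928% than CEBPA.

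**Figure D1:**
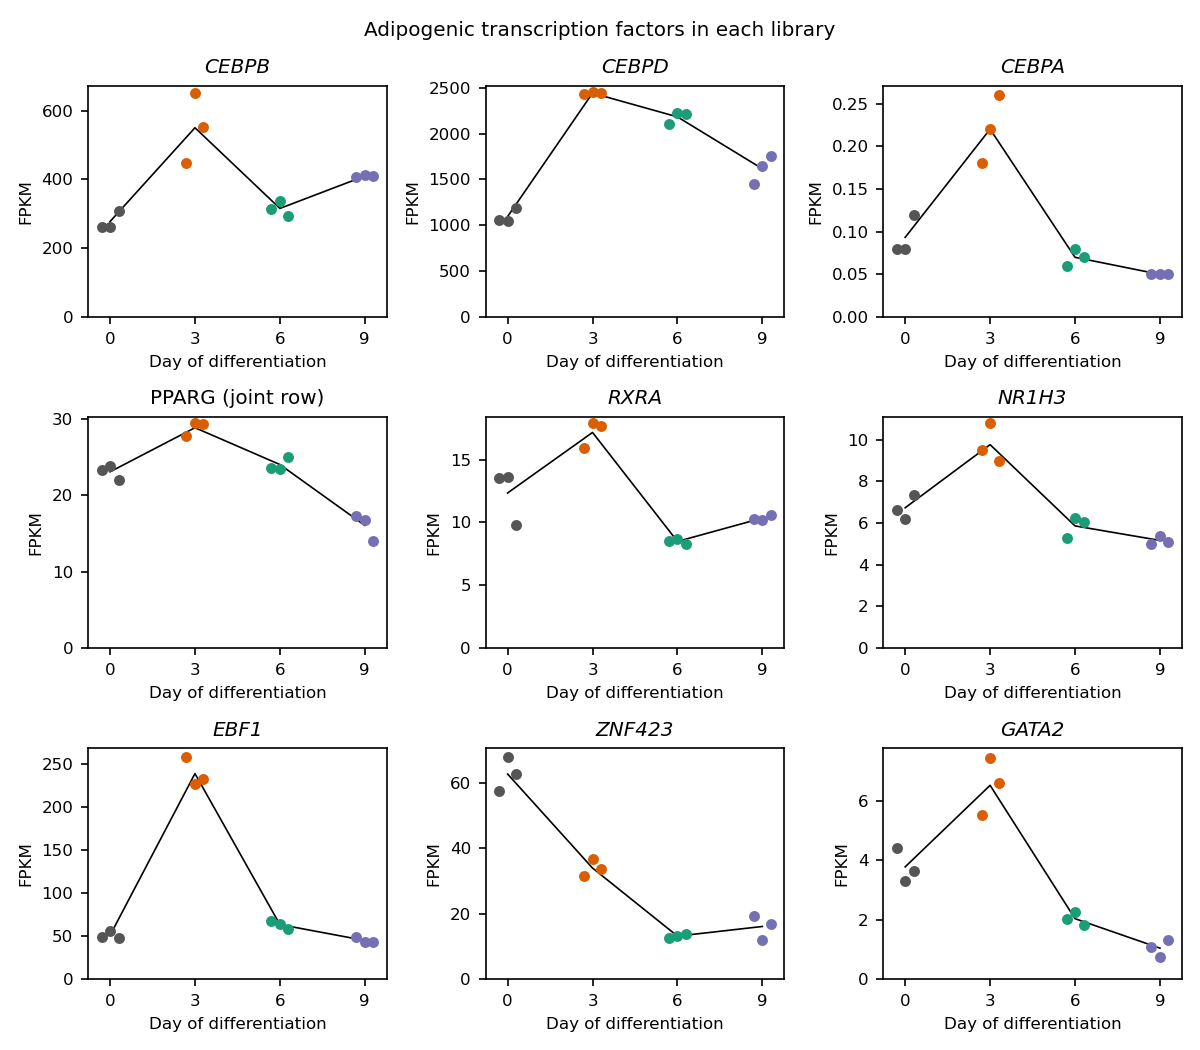
FPKM (vertical axes, each starting at 0) of the 9 factors by day after induction, with a point for each of the 3 libraries of a day and a line through the means. The 3 d points lie above all others in 8 panels, and in that of ZNF423 the 0 d points (57.3 to 67.8) lie highest.

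The early factors were abundant before induction and highest at 3 d, where CEBPD passed the call and CEBPB did not. CEBPB, known as a first responder to the hormonal cocktail, had 262, 261 and 310 FPKM before induction, and its 3 d libraries had 447, 652 and 552. Those of 6 d had 314, 339 and 295 FPKM, followed by 407, 413 and 409 on 9 d. All 3 d libraries thus lay above the rest, the 9 d libraries came next without overlap with 6 d or 0 d, and those of 6 d and 0 d overlapped. After rescaling, the 6 d libraries (302.1 to 347.6) lay above those of 0 d (232.2 to 288.1), and the difference did not pass (0.36, limma adjusted p = 0.063). The difference between 3 d and 0 d was 0.97 on the log2 scale (SE 0.124, limma adjusted p = 8.36e-05), just under the threshold of the call. It passed that threshold after rescaling (1.05), without the third 0 d library (1.05) and without the first 3 d library (1.12). CEBPB was 0.79 lower at 6 d than at 3 d (limma adjusted p = 0.000444), and the step from 6 d to 9 d (0.38, limma adjusted p = 0.0569) did not pass.

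CEBPD, which acts beside CEBPB, was the most abundant of the factors. Its FPKM were 1055, 1044 and 1189 before induction, 2435, 2447 and 2439 on 3 d, 2109, 2221 and 2214 on 6 d, and finally 1449, 1646 and 1753 on 9 d. No pair of days overlapped, in the order 3 d, 6 d, 9 d and 0 d, and the 3 d libraries were almost level with each other. CEBPD rose at 3 d by a log2 fold change of 1.16 (SE 0.072, limma adjusted p = 4.42e-07), which was called without any 1 of the 12 libraries. At 6 d it stood 0.995 above 0 d (limma adjusted p = 3.56e-06), below the threshold by a narrow margin, and it was called after rescaling (1.17), without the third 0 d library (1.05) and without the first 6 d library (1.02). It remained above 0 d at 9 d (0.56, limma adjusted p = 0.00022). The neighbours 3 d and 6 d differed by -0.16 (limma adjusted p = 0.0892).

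CEBPA, the late C/EBP factor that cooperates with PPARG, stayed at the limit of measurement. It had 0.08, 0.08 and 0.12 FPKM at 0 d, 0.18, 0.22 and 0.26 at 3 d, 0.06, 0.08 and 0.07 at 6 d, and 0.05 in each library of 9 d. These values are a few steps of the 0.01 FPKM to which the table is rounded, and the 3 d libraries exceeded the others. The gene had a mean of 0.108 FPKM and passed the filter through its 3 d libraries alone, so that a difference from 3 d was bound to appear. Without the second or the third 3 d library it missed the filter and had no value. From 3 d to 9 d it fell by 1.09 on the log2 scale (SE 0.138, limma adjusted p = 9.72e-05), and with a pseudocount of 1 the difference was -0.22. With a pseudocount of 0.01 CEBPA was also called at 3 d vs 0 d (1.16) and at 6 d vs 3 d (-1.52), in place of 0.73 and -0.91. The neighbours in the order 0 d, 6 d and 9 d did not pass the test (limma adjusted p = 0.362 and 0.428).

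Set side by side per length, CEBPD was the larger part and CEBPB the smaller part of the summed FPKM of CEBPA, CEBPB and CEBPD, from which the other C/EBP genes are left out. This sum was 1374 ± 108 FPKM (SD, n = 3) before induction, then 2991 ± 109 on 3 d, 2497 ± 68.9 on 6 d and 2026 ± 156 on 9 d. CEBPD made up 79.8 ± 0.405% of it before induction, then 81.7 ± 2.77% on 3 d, 87.3 ± 0.781% on 6 d and 79.7 ± 1.52% on 9 d. The 6 d libraries (86.8% to 88.2%) lay above those of all other days, and the others overlapped. CEBPA accounted for at most 0.00869% of the sum in any library. CEBPG, a widely expressed C/EBP protein without an activation domain, went the opposite way, with 77.2 ± 1.64 FPKM (SD, n = 3) at 0 d and 41.4 ± 2.15 at 3 d (log2 fold change -0.90, limma adjusted p = 1.55e-06). CEBPB was 3.33 to 4.10 times as abundant as CEBPG in the 0 d libraries and 11.1 to 16.2 times in those of 3 d.

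**Figure D2:**
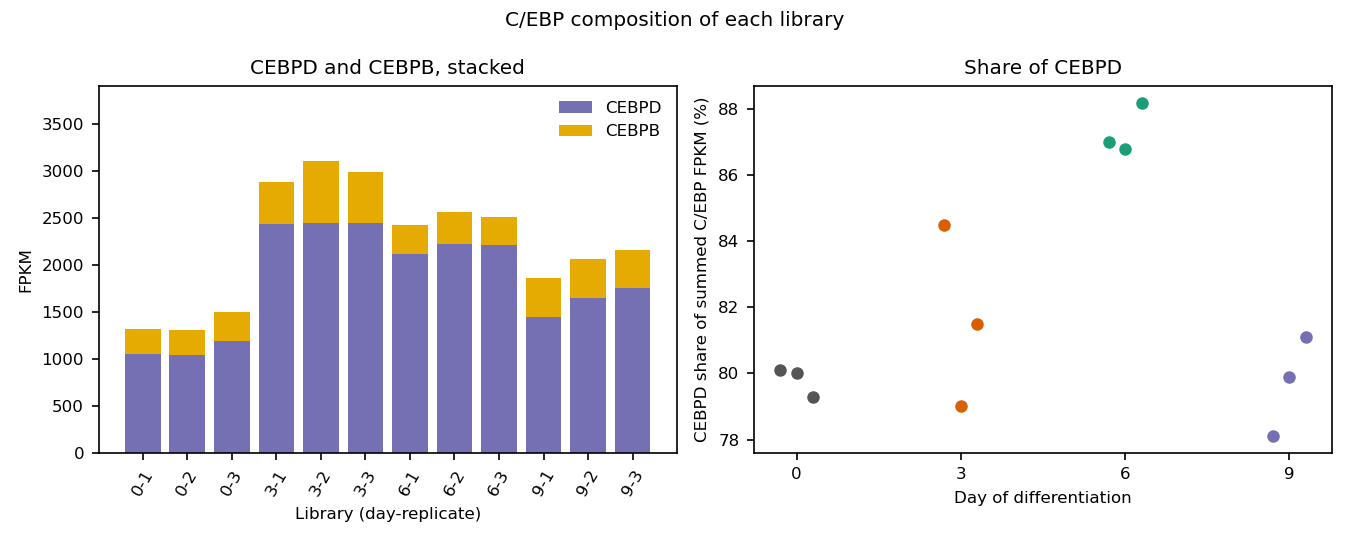
The left panel stacks the FPKM of CEBPD and CEBPB in each library (named by day and replicate), and CEBPA is too low to be drawn. The right panel shows the share of CEBPD in the summed FPKM of the 3 genes in percent, on an axis that does not start at 0. The sum is highest at 3 d (mean 2991), and the share is highest at 6 d (86.8% to 88.2%).

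PPARG, the master regulator of fat cell differentiation, stayed within a narrow range. Its row in the table is a joint one that also covers other annotation, and the level of PPARG alone cannot be told apart from it. That row had 23.4, 23.9 and 22.03 FPKM before induction, followed by 27.8, 29.5 and 29.3 on 3 d, 23.6, 23.5 and 25.02 on 6 d and then 17.4, 16.8 and 14.1 on 9 d. The 3 d libraries were highest and those of 9 d lowest, while 0 d and 6 d overlapped (0.06, limma adjusted p = 0.634). After rescaling, the 6 d libraries (24.13 to 25.61) lay above those of 0 d (20.5 to 21.35), and the difference did not pass (0.23, limma adjusted p = 0.0704). It was 0.32 above 0 d at 3 d (SE 0.082, limma adjusted p = 0.00751) and 0.53 below 0 d at 9 d (95% interval -0.71 to -0.34, limma adjusted p = 0.000694). None of the 6 comparisons of this row passed the fold threshold, and the largest difference was -0.85 between 9 d and 3 d.

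The paralogs of PPARG were expressed beside it. PPARD, the widely expressed family member, had 86.2 ± 18.2, 72.0 ± 12.6, 97.3 ± 8.86 and 64.9 ± 7.53 FPKM (SD, n = 3) on 0, 3, 6 and 9 d, which is 2.01 to 4.48 times the joint PPARG row within a library. PPARA, which drives fatty acid oxidation, had 20.8 ± 1.25, 31.5 ± 6.09, 37.1 ± 26.1 and 17.6 ± 1.73 FPKM. Both were called in none of the 6 comparisons by limma, and in PPARD the step from 6 d to 9 d (-0.59, limma adjusted p = 0.0345) was the only one with an adjusted p under 0.05.

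RXRA, the partner with which PPARG and NR1H3 bind DNA, peaked at 3 d and was lowest at 6 d. It had 13.6, 13.6 and 9.83 FPKM before induction, 15.9, 17.9 and 17.7 on 3 d, 8.54, 8.65 and 8.26 on 6 d, and finally 10.3, 10.2 and 10.6 on 9 d. The 3 d libraries lay above all others and those of 6 d below all others, and 9 d lay inside the range of 0 d, where the third library was low (limma adjusted p = 0.144). The fall from 3 d to 6 d was called (log2 fold change -1.01, SE 0.117, limma adjusted p = 5.49e-05), but only just. It missed the fold threshold with a pseudocount of 1 (-0.94), after rescaling (-0.92), and without the second 3 d library (-0.97), the third 3 d library (-0.98) or the third 6 d library (-0.99). The libraries of 9 d and 6 d did not overlap, and their difference of 0.28 (95% interval 0.02 to 0.54, unadjusted p = 0.0365) missed the threshold after adjustment (limma adjusted p = 0.125). RXRB had 1.99 to 2.57 FPKM as day means and RXRG at most 0.123, so that RXRA was the main RXR transcript.

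NR1H3 was also highest at 3 d, at a lower level, and had its lowest mean at 9 d. Its FPKM were 6.64, 6.21 and 7.35 before induction, followed by 9.51, 10.8 and 8.98 on 3 d, 5.27, 6.26 and 6.06 on 6 d and then 5.01, 5.39 and 5.10 on 9 d. The 3 d libraries stood apart, and in the order 0 d, 6 d and 9 d each day overlapped with the next. The difference of 0.53 at 3 d (SE 0.10, limma adjusted p = 0.00127) was below the fold threshold, and from 3 d to 9 d it was -0.90 (limma adjusted p = 3.72e-05). The paralog NR1H2 had 5.44 ± 0.318 FPKM (SD, n = 3) at 0 d, 4.69 ± 0.528 at 3 d and 6.20 ± 0.0306 at 9 d. NR1H3 therefore exceeded NR1H2 1.98- to 2.23-fold at 3 d and lay below it at 9 d, with a ratio of 0.804 to 0.871.

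EBF1 had the largest rise of the 9 from 0 d to 3 d. This helix-loop-helix factor of committed precursors had 48.8, 55.8 and 48.4 FPKM before induction, 258, 227 and 233 on 3 d, 68.1, 64.0 and 58.4 on 6 d, and finally 48.6, 43.1 and 43.3 on 9 d. All 3 d libraries were more than 3 times the highest library of any other day, the 6 d libraries lay just above those of 0 d, and 0 d and 9 d overlapped. EBF1 rose at 3 d with a log2 fold change of 2.23 (SE 0.087, limma adjusted p = 1.41e-08), and it fell by 1.91 from 3 d to 6 d (limma adjusted p = 6.39e-08). At 9 d the difference from 0 d did not pass the test (-0.18, 95% interval -0.37 to 0.02, limma adjusted p = 0.139). EBF2, a paralog of brown fat precursors, rose at 3 d as well (1.65, limma adjusted p = 7.93e-06), at 1.96 ± 0.433 FPKM (SD, n = 3) on 0 d and 6.26 ± 0.466 on 3 d. EBF3 did not pass the test there (0.13, limma adjusted p = 0.637), and the ratio of EBF1 to EBF3 was 3.06 to 4.58 at 0 d and 15.2 to 19.2 at 3 d.

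ZNF423, a zinc finger protein that marks committed preadipocytes and responds to BMP, was highest before induction. It had 57.3, 67.8 and 62.8 FPKM before induction, followed by 31.6, 36.6 and 33.5 on 3 d, 12.5, 13.0 and 13.8 on 6 d and then 19.2, 12.1 and 17.0 on 9 d. The 0 d libraries were the highest, those of 3 d came next, and 6 d and 9 d overlapped (0.26, limma adjusted p = 0.268). The difference at 3 d was -0.88 (limma adjusted p = 0.000636). ZNF423 fell at 6 d by 2.24 on the log2 scale (SE 0.15, limma adjusted p = 1.97e-06) and at 9 d by 1.98 (limma adjusted p = 5.77e-06), both called without any 1 of the 12 libraries. The fall from 3 d to 9 d (-1.10) missed the threshold after rescaling (-0.97) and without the second 9 d library (-0.90). Its paralog ZNF521, an inhibitor of EBF1 and of ZNF423, was less abundant, at 3.73 ± 0.805 FPKM (SD, n = 3) before induction, then 1.72 ± 1.2 on 3 d, 1.23 ± 0.815 on 6 d and 2.34 ± 0.0557 on 9 d. It was called against 0 d at 6 d alone (-1.68, limma adjusted p = 0.0218).

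GATA2, which keeps precursors undifferentiated, was highest at 3 d and ended far below its starting level. It had 4.40, 3.28 and 3.63 FPKM before induction, 5.50, 7.43 and 6.60 on 3 d, 2.02, 2.24 and 1.83 on 6 d, and finally 1.07, 0.75 and 1.3 on 9 d. No days overlapped, in the order 3 d, 0 d, 6 d and 9 d, and every neighbouring pair differed at an adjusted p under 0.05. The difference at 3 d was 0.77 (SE 0.192, limma adjusted p = 0.00667), below the fold threshold. GATA2 fell by 1.78 from 0 d to 9 d (limma adjusted p = 6.53e-05) and by 2.56 from 3 d to 9 d (limma adjusted p = 2.15e-06). Between 6 d and 9 d the difference of -0.93 (limma adjusted p = 0.00698) passed the fold threshold without the third 9 d library alone (-1.09). GATA6 was the only other GATA gene with a mean above 0.1 FPKM, at 0.607, and its level fell at 3 d (-1.38, limma adjusted p = 0.000207), while GATA1 was listed at 0.

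Against 0 d, 2, 1 and 2 of the 9 factors were called at 3 d, 6 d and 9 d, ZNF423 at both 6 d and 9 d. These numbers stand beside the shares of all mRNAs given below and do not set the factors apart. Whether the days differ in the factors that change was not tested. At 3 d vs 0 d limma called 8.06% of all mRNAs higher and 15.2% lower, and of the 9 factors CEBPD and EBF1 were higher, joined by CEBPB after rescaling or without the third 0 d library (1.05) or the first 3 d library (1.12). Regardless of fold, the shares with an adjusted p under 0.05 were 21.7% higher and 30.5% lower, against 8 and 1 of the factors, the latter ZNF423, or 7 and 1 without CEBPA. The median log2 fold change was 0.73 for the factors, 0.65 without CEBPA and -0.06 for all mRNAs. At 6 d vs 0 d the called shares were 3.39% higher and 7.97% lower, and ZNF423 was the 1 factor called, joined by CEBPD after rescaling or without the third 0 d library (1.05) or the first 6 d library (1.02). Regardless of fold they were 10% and 24.8%, against 2 and 3 factors. At 9 d vs 0 d they were 3.41% and 7.47%, with ZNF423 and GATA2 called lower, and regardless of fold 9.69% and 27.2%, against 2 and 4 factors, or 2 and 3 after rescaling, where NR1H3 had an adjusted p of 0.28 in limma. The 3 comparisons share the 0 d libraries, so their values are given side by side only.

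Of the 13 calls among the factors over the 6 comparisons, 8 lay between 3 d and the later days and 5 against 0 d. After rescaling these were 6 and 7 (5 and 7 without CEBPA). Over all mRNAs, 2939 and 3157 were called from 3 d to 6 d and 9 d, and 683 from 6 d to 9 d. Against 0 d there were 3585, 1749 and 1675 at 3 d, 6 d and 9 d, and the split of the factors was not tested against these. From 3 d to 6 d, 9.85% of all mRNAs were called higher and 9.23% lower, and 4 of the 9 factors, RXRA, ZNF423, EBF1 and GATA2, fell, or 3 after rescaling, where RXRA (-0.92) was no longer called. Without the second (-0.97) or the third (-0.98) 3 d library or the third 6 d library (-0.99), RXRA was not called either. Regardless of fold the shares were 22.4% higher and 27.1% lower, and 8 factors were lower, all but CEBPD, or 7 without CEBPA. After rescaling the numbers were 7 and 6, where the PPARG row had an adjusted p of 0.125 in limma. From 3 d to 9 d the called shares were 10.2% and 10.3%, and 4 factors, CEBPA, ZNF423, EBF1 and GATA2, fell, of which CEBPA had passed the filter through 3 d alone, so that 3 of 8 fell without it. ZNF423 was not among them after rescaling (-0.97) or without the second 9 d library (-0.90). Regardless of fold they were 22.2% and 29.1%, and all 9 factors, or 8 of 8 without CEBPA, were lower. After rescaling the numbers were 8 and 7, where CEBPB had an adjusted p of 0.104 in limma. Median log2 fold changes in these comparisons were -0.91 and -0.90 for the factors, -0.90 and -0.87 without CEBPA, and -0.09 and -0.13 for all mRNAs.

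The last interval had the smallest shares of calls. From 6 d to 9 d limma called 2.55% of all mRNAs higher and 1.89% lower, and 0 of the 9 factors, of which 6 had an unadjusted p under 0.05, as had 32% of all mRNAs. Without the third 9 d library GATA2 was called (-1.09). Regardless of fold the shares were 10% higher and 10.7% lower, and 4 factors, PPARG by its joint row, CEBPD, EBF1 and GATA2, were lower. Rescaling moved the median of all mRNAs upwards by 0.17 at 6 d and 0.20 at 9 d against 0 d and by 0.13 from 3 d to 9 d. Relative to that shift, the log2 fold changes at 9 d vs 0 d were -1.77 for ZNF423, -1.59 for GATA2, -0.32 for the PPARG row, -0.17 for NR1H3, 0.03 for EBF1 and 0.77 for both CEBPB and CEBPD.

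**Figure D3:**
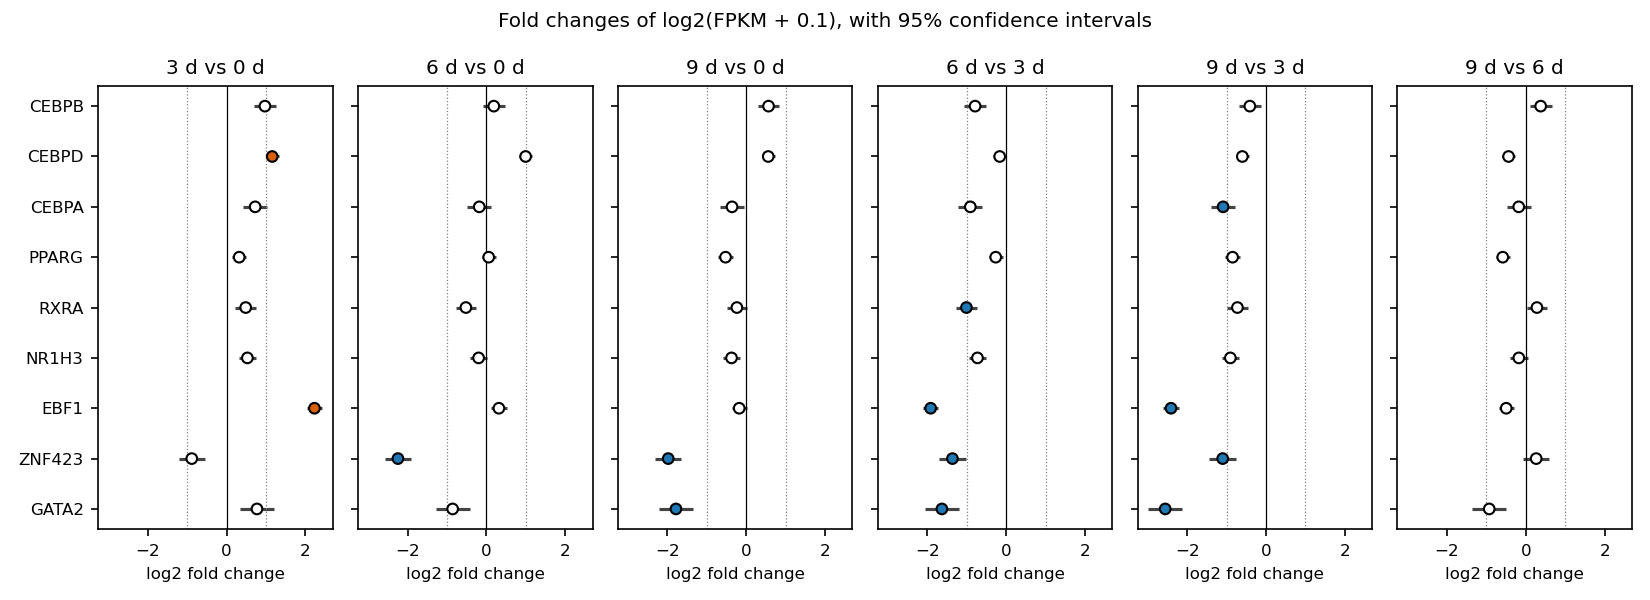
Log2 fold change (horizontal axes, later minus earlier day, on log2(FPKM + 0.1)) of the 9 factors in the 6 comparisons, with bars for 95% confidence intervals from limma. Orange points were called higher, blue points lower and white points not called, and dotted lines mark a log2 fold change of 1. EBF1 at 3 d vs 0 d (2.23) and GATA2 at 9 d vs 3 d (-2.56) lie farthest to either side.

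The mRNAs most like each factor over the 12 libraries were sought among 10221 rows with a mean of at least 1 FPKM (10222 for CEBPA, itself below that level). These Pearson r of log2(FPKM + 0.1) describe libraries of 4 days and were not tested. EBF1 was closest to PDK4 (r = 0.996), NFYA (r = 0.995) and ALDH1A1 (r = 0.993). PDK4, a kinase that restrains glucose oxidation, had a mean of 0.94 FPKM at 0 d, 62.9 at 3 d and 1.97 at 6 d. CEBPD was closest to SCN7A (r = 0.988), ZNF703 (r = 0.987) and P4HA3 (r = 0.985), all of them high at both 3 d and 6 d. CEBPB lay nearest to TMEM129 (r = 0.975), ZNF623 (r = 0.966) and POLD1 (r = 0.961).

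CEBPA spans a few rounding steps and passed the filter through 3 d alone, which limits what its r can show. Its nearest mRNAs were HIST1H2BD (r = 0.992), APEX1 (r = 0.99) and SMARCD2 (r = 0.986), and those of NR1H3 were NOP9 (r = 0.985), STARD7 (r = 0.983) and HIST2H2BF (r = 0.979). For the PPARG row they were RCL1 (r = 0.967), TROAP (r = 0.957) and GCLM (r = 0.956), and for RXRA FOXN3 (r = 0.967), ATMIN (r = 0.964) and ST3GAL3 (r = 0.963). ZNF423 resembled HACL1 (r = 0.987), the sarcomere gene MYOM1 (r = 0.984) and ABCA3 (r = 0.983), which all had lower means at 6 d than before induction. GATA2 resembled ATXN7L3B (r = 0.988), CCDC189 (r = 0.979) and KLHL23 (r = 0.979). Among the factors themselves, the closest pair, leaving out CEBPA, was NR1H3 and GATA2 (r = 0.90), and the least alike were CEBPD and ZNF423 (r = -0.55).

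The signals that induce CEBPB and CEBPD were followed through 13 genes of glucocorticoid and cAMP signalling. Of these, 6 rose at 3 d (7 after rescaling) with a median log2 fold change of 0.96, against -0.06 for all mRNAs. For this and the lists that follow, the background is the 8.06% of all mRNAs called higher and 15.2% called lower at 3 d, and 3.41% and 7.47% at 9 d. ZBTB16, a zinc finger gene under strong glucocorticoid control, had 0.343 ± 0.162 FPKM (SD, n = 3) before induction, 282 ± 105 on 3 d and 12.3 ± 2.92 on 9 d. FKBP5, a chaperone of the glucocorticoid receptor, had 0.423 ± 0.116 FPKM before induction, and its 3 d libraries were far apart, with 114, 22.7 and 113. The clock gene PER1 went from 0.82 ± 0.111 to 6.94 ± 0.271 FPKM and stood at 0.943 ± 0.0808 on 9 d. Their log2 fold changes at 3 d were 9.29, 7.02 and 2.94 (limma adjusted p = 8.7e-09, 2.66e-05 and 7.65e-09). At 9 d vs 0 d, 3 of the 13 were higher, ZBTB16, FKBP5 and the orphan receptor NR4A1 (1.11), and CREB1, the factor through which cAMP acts, was lower (-1.01, limma adjusted p = 0.0101). The 9 d libraries of CREB1 had 7.67, 6.50 and 15.1 FPKM, and it was not called after rescaling. PDE4B (1.04) was then called higher, so that 4 were higher and 0 lower.

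The BMP and SMAD genes upstream of ZNF423 showed 4 of 11 tested genes lower at 3 d, with a median of -0.38. WISP2, which retains ZNF423 in the cytoplasm, had 335 ± 10.2 FPKM (SD, n = 3) before induction and 255 ± 7.23 on 9 d, while its 3 d libraries were listed at 0.97, 0 and 0. The BMP antagonist GREM1 had 27.5 ± 2.45, 0.257 ± 0.0115 and 42.7 ± 5.27 FPKM on 0, 3 and 9 d. The receptor BMPR2 fell at 3 d too (-1.45, limma adjusted p = 0.00949). At 9 d vs 0 d the ligand BMP4 rose (1.87, limma adjusted p = 0.000109), and BMPR1B (-1.46) and the ligand BMP2 (-1.03) fell. After rescaling 1 of the 3 falls at 9 d was left, that of BMPR1B, and BMP2 stood at -0.83. WISP2 and GREM1 were thus lowest at 3 d. ZNF423 had its lowest mean at 6 d, where its libraries overlapped with those of 9 d.

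Many of the known targets of PPARG and RXRA serve lipid uptake and storage. Of 24 tested genes 15 rose and 2 fell at 3 d, where 8.06% and 15.2% of all mRNAs did, with a median log2 fold change of 1.2, and at 9 d vs 0 d 7 rose and 1 fell, with a median of 0.40 against -0.19 for all mRNAs. DGAT2, which makes triglyceride, was listed at 0.04, 0 and 0.18 FPKM before induction and had 21.8 ± 1.41 (SD, n = 3) on 3 d and 9.25 ± 2.06 on 9 d. The fatty acid carrier FABP4 had 3.30 ± 0.255, 91.1 ± 4.42 and 9.07 ± 1.61 FPKM, and the fatty acid transporter CD36 0.307 ± 0.00577, 3.41 ± 0.284 and 8.07 ± 0.469. PDK4 rose by 5.95 at 3 d (limma adjusted p = 1.16e-09) and was back near its starting level at 9 d (-0.30, limma adjusted p = 0.177). PLIN4, a lipid droplet coat protein, was higher at 9 d (2.36, limma adjusted p = 2.56e-06), at 1.3 FPKM. Among the rises at 3 d, PCK1 had a mean of only 0.0778 FPKM outside its 3 d libraries, under the filter. Lower were AGPAT2 (-1.05) and CIDEA (-1.03) at 3 d, neither of them called after rescaling, and CPT1A at 9 d (-2.00).

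Targets of C/EBP proteins and of NR1H3 were followed as lists of their own. Of 9 tested C/EBP targets, 4 rose and 1 fell at 3 d (median 0.69), and 3 rose at 9 d (median 0.60). The lipolysis inhibitor G0S2 was listed at 0.05, 0.11 and 0 FPKM before induction and had 2.19 ± 0.286 (SD, n = 3) on 3 d and 0.0533 ± 0.0231 on 9 d. The hormone LEP had 2.34 ± 0.155 FPKM before induction, was listed at 0, 0.21 and 0 on 3 d, and reached 20.5 ± 4.43 on 9 d. FKBP5, already counted among the genes of glucocorticoid signalling, and HP (1.82, at 0.49 FPKM) rose at 3 d. At 9 d IL6 rose (1.14), at 0.31 FPKM. G0S2 passed the filter through its 3 d libraries alone and IL6 through those of 9 d (means of 0.0878 and 0.0556 FPKM over the 9 others), so that a difference from those days was bound to appear. Of 13 tested LXR targets 3 rose and 1 fell at 3 d (median 0.76) and 2 rose and 1 fell at 9 d (median -0.06). After rescaling 4 rose and 1 fell at 3 d, since FASN (1.04) was then called. The cholesterol exporter ABCA1 had 298 ± 48.6, 2937 ± 382 and 958 ± 34.3 FPKM on 0, 3 and 9 d, and the desaturase SCD 27.1 ± 3.75, 275 ± 27.2 and 109 ± 14.5. MYLIP, which degrades the LDL receptor, rose (1.71) and MLXIPL fell (-1.32) at 3 d, and SMPDL3A fell at 9 d (-1.72).

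**Figure D4:**
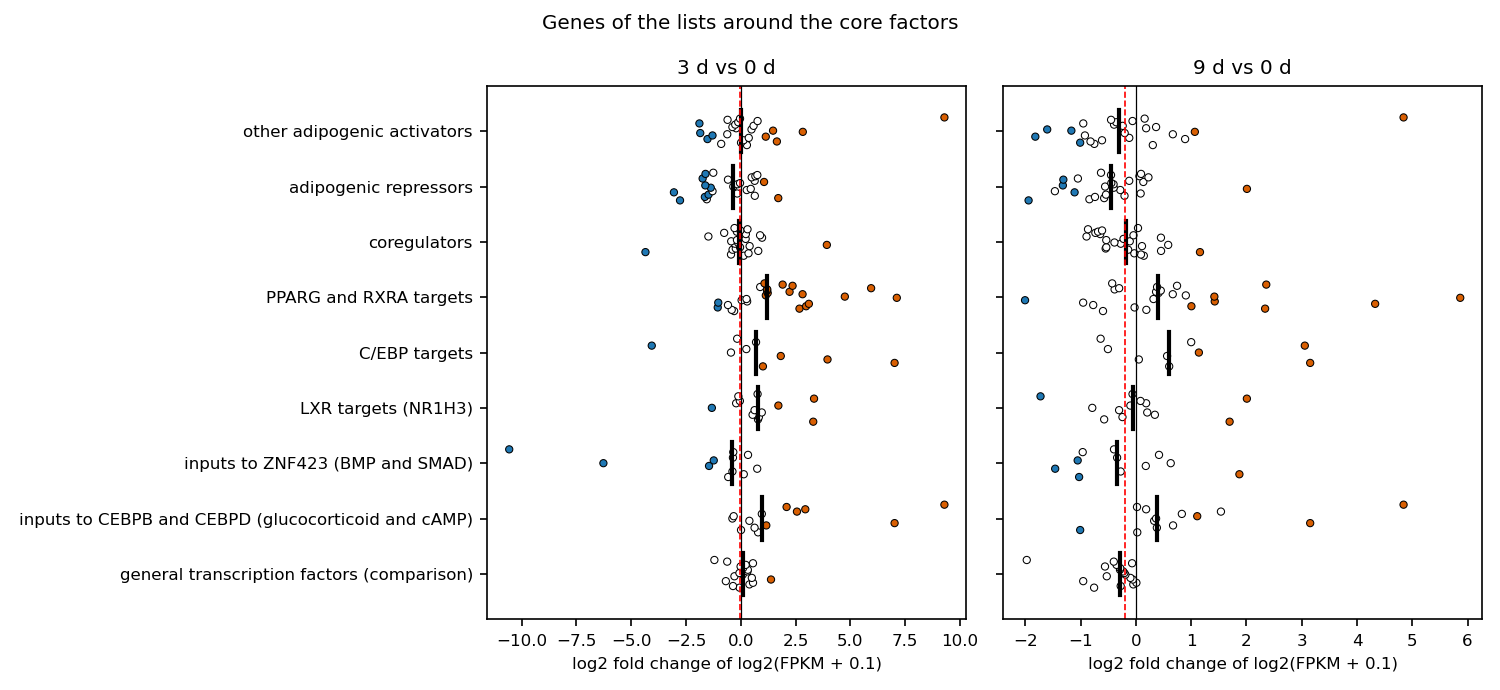
Log2 fold change (horizontal axes) at 3 d and at 9 d vs 0 d of the tested genes of 9 lists. Each point is a gene, orange where called higher, blue where called lower and white where not called, black bars are list medians and the dashed red line is the median of all mRNAs. The median of PPARG and RXRA targets is 1.2 in the left panel and 0.40 in the right.

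Other factors known to promote adipogenesis moved in both directions. Of 24 tested genes 5 rose and 4 fell at 3 d (median -0.01), and 2 rose and 4 fell at 9 d (median -0.30), or 3 and 2 after rescaling. KLF9, read from a row shared with an uncharacterised gene, had 91.2 ± 4.81 FPKM (SD, n = 3) at 0 d, 648 ± 11.1 at 3 d and 191 ± 11.7 at 9 d. KLF6 went from 26.9 ± 1.2 to 7.40 ± 0.601 and back to 23.4 ± 0.958. PRDM16 (-1.89) and EGR2 (-1.52) also fell at 3 d, and KLF15 (-1.82), NFIB (-1.60) and NFIA (-1.17) fell at 9 d, of which NFIA (-0.96) was not called after rescaling. Before that, KLF15 (1.14) and NFIA (1.47) had risen at 3 d (limma adjusted p = 5.99e-05 and 0.000207).

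Repressors of adipogenesis were called in both directions. Of 25 tested genes 2 rose and 8 fell at 3 d, where 8.06% of all mRNAs rose and 15.2% fell, with a median of -0.34, and 1 rose and 4 fell at 9 d, with a median of -0.45, or 1 and 2 after rescaling. KLF2 had 11.6 ± 0.825 FPKM (SD, n = 3) at 0 d, 1.32 ± 0.225 at 3 d and 5.34 ± 0.752 at 9 d. DDIT3, a C/EBP protein that blocks DNA binding by its partners, had 20.4 ± 2.39, 2.96 ± 0.852 and 5.39 ± 1.75 FPKM. TEAD4 fell at 3 d (-1.74, limma adjusted p = 0.00604), and FOXO1 (1.71) and SNAI1 (1.06) rose. At 9 d NR2F1 (-1.32) and TCF7L2 (-1.31, not called after rescaling) fell, and MSX1 rose from 27.1 ± 1.66 to 109 ± 4.42 FPKM.

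Of 24 tested coregulators 1 rose and 1 fell at 3 d, or 2 and 1 after rescaling, where 8.06% of all mRNAs rose and 15.2% fell. Those called without rescaling were LPIN1, a phosphatidate phosphatase that also coactivates nuclear receptors (27.9 ± 2.89 to 424 ± 11.6 FPKM, SD, n = 3), and the cyclin CCND1, an inhibitor of PPARG (84.1 ± 4.34 to 4.03 ± 0.354). CCND1 was above its starting level at 9 d, at 188 ± 7.69 FPKM (1.16, limma adjusted p = 1.57e-06). Among 18 general transcription factors taken for comparison, NFYA alone was called at 3 d (1.38, limma adjusted p = 2.55e-07), with a list median of 0.09, and at 9 d vs 0 d the median was -0.28.

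Marker genes of adipocytes and their precursors were followed over the days. All 10 adipocyte markers are also in the lists of PPARG and RXRA targets or of C/EBP targets, so their calls repeat calls counted above. The 10 adipocyte markers summed to 39.7, 48.6 and 49.8 FPKM before induction, followed by 146, 146 and 154 on 3 d, 73.9, 79.3 and 85.5 on 6 d and then 76.5, 62.5 and 76.8 on 9 d. The most abundant over the 12 libraries was PLIN1, from a row joined with PEX11A (mean 35.1), but at 3 d FABP4 (91.1) exceeded it (47.04), while ADIPOQ, the most specific, had day means of 0.0233, 0.723, 0.70 and 0.603 FPKM. Of these markers 4 rose and 2, LEP and CIDEA, fell at 3 d (LEP alone after rescaling), and 4 rose at 9 d. The 4 at 3 d include PCK1, which had a mean of 0.0778 FPKM outside its 3 d libraries, under the filter. Its difference from 3 d was therefore bound to appear. ADIPOQ rose by 2.68 at 3 d, but its 6 d libraries had 1.64, 0.22 and 0.24 FPKM. LIPE rose at 3 d (2.22) and CIDEC at 9 d (1.43). The 10 preadipocyte and mesenchymal markers had sums between 13640 and 14470 FPKM before induction, and later between 44460 and 46510 (3 d), 35240 and 36810 (6 d) or 49130 and 50240 (9 d), and DCN made up most of each sum, with 9949 at 0 d and 42430 at 3 d. The genes of this list went both ways. At 3 d 5 of 9 tested genes rose, among them PDGFRA (2.54), DCN (2.09) and THY1 (1.85). CD34 (-1.86), COL1A1 (-1.68), PDGFRB (-1.38) and ENG (-1.3) fell. At 9 d 3 rose, DCN (2.16), NT5E (1.815) and LUM (1.665), and 1, CD34, fell. CD34 passed the filter through its 0 d libraries alone.

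Markers of muscle cells were present. Of 10 skeletal muscle markers 9 were matched, and they summed to 828, 869 and 943 FPKM before induction, 272, 301 and 297 on 3 d, 402, 381 and 424 on 6 d, and finally 329, 294 and 326 on 9 d. DES was the most abundant (mean 263), and MYOD1, the determination factor of myoblasts, had 268 ± 32.5 FPKM (SD, n = 3) at 0 d and 54.6 ± 10.5 at 9 d. Of the 9 genes 6 fell at 3 d and 7 at 9 d, or 6 at 9 d after rescaling, where TNNT3 (-0.85) was not called. The list was highest on the day on which ZNF423 was highest, and the part of such cells in the course of ZNF423 was not tested.

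Endothelial cells, macrophages and mast cells also express some of the factors, such as GATA2 and NR1H3. The 10 endothelial markers summed to 2.59 to 3.83 FPKM per library, with VWF the most abundant (mean 2.06) and 6 genes at a mean under 0.1. Of 10 macrophage and myeloid markers 9 were matched. They summed to 1.94, 1.97 and 1.68 FPKM before induction, followed by 207, 118 and 88.8 on 3 d, 30.1, 28.3 and 14.8 on 6 d and then 6.73, 6.04 and 5.21 on 9 d, led by CD163 (mean 40.2), a haemoglobin scavenger receptor, with 134 ± 61.9 (SD, n = 3) on 3 d. PTPRC and ITGAM, which define the lineage, were listed at 0 in every library, and 5 of the 9 matched genes had a mean under 0.1. The sum was highest on 3 d (mean 137.8, most of it CD163), as 8 of the factors were. The part of such cells in the course of the factors was not tested. The 8 mast cell markers summed to 0 to 1.28 FPKM, with HPGDS the most abundant (mean 0.504), and FCER1A, GATA1 and TPSB2 were listed at 0.

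**Figure D5:**
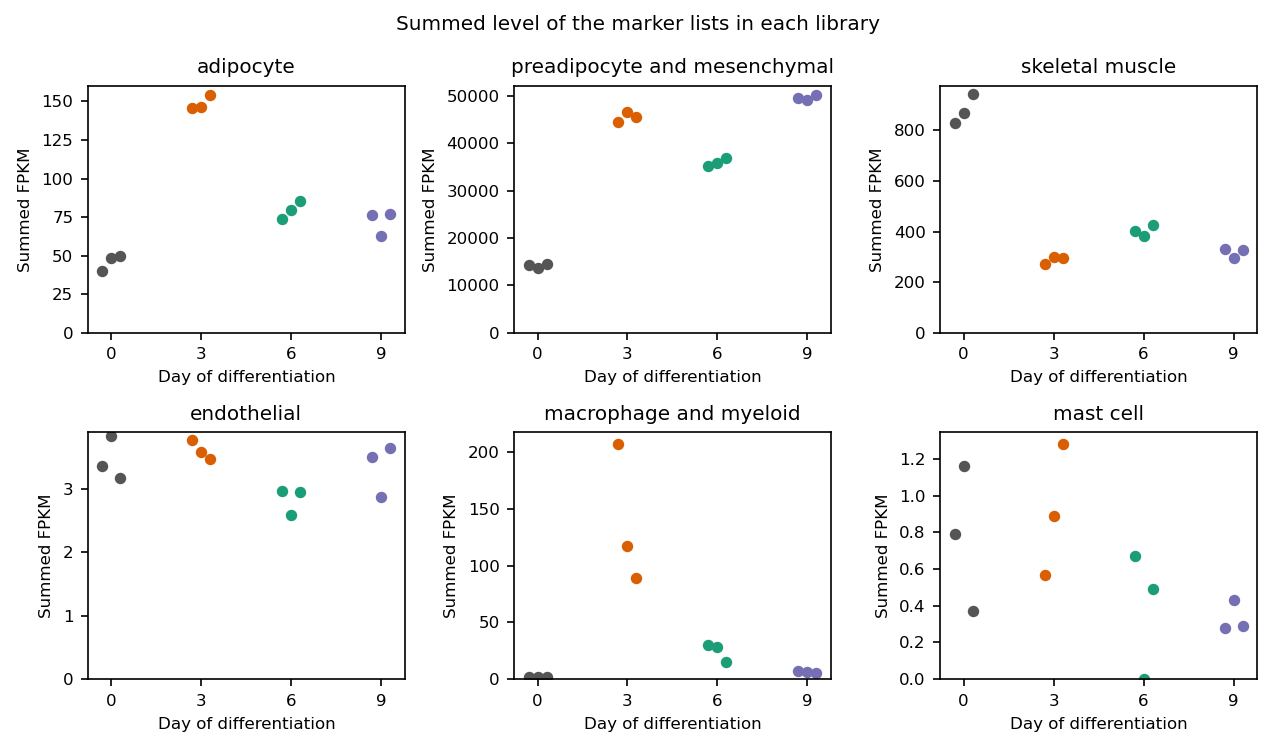
Summed FPKM (vertical axes, each starting at 0) of 6 marker lists in each library by day after induction. The muscle list is highest at 0 d (828 to 943 FPKM), the adipocyte and the macrophage list are highest at 3 d, and the endothelial and mast cell lists stay below 4 FPKM.

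Back-spliced reads of the same loci were sparse. Of 14070 circRNAs 13 had a host among the 8 factors other than PPARG, with 32 of 95674 reads in all. EBF1 hosted 7 circRNAs with 15 reads, 12 of them in the 3 d libraries (6, 5 and 1), and its largest was circRNA5411 with 4 reads. ZNF423 hosted 3 with 12 reads, led by circRNA5211 with 6. RXRA hosted 2 with 3 reads (circRNA7545 with 2), and CEBPD 1, circRNA7918, with 2 reads. These counts were not tested between days. The sources differ on whether the long RNA libraries were made by poly(A) selection, which removes most circRNAs, or by depletion of rRNA, so a low count says little about the abundance of a circRNA. The same holds for FPKM of histone mRNAs, most of which lack a poly(A) tail.

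The miRNA libraries hold 2 families known to bind the mRNA of PPARG and to restrain adipogenesis, and their deposited sequences are shown because the shared seed sets the targets. That of miR-27a-3p is listed as a variant with 1 base more at its 3′ end than the reference miRNA. Capitals mark the seed, bases 2 to 8 from the 5′ end, which miR-27a-3p shares with miR-27b and miR-130a with miR-130b.
bta-miR-27a-3p: tTCACAGTggctaagttccgc
bta-miR-27b: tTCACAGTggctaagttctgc
bta-miR-130a: cAGTGCAAtgttaaaagggcat
bta-miR-130b: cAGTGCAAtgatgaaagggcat

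In the normalised read signal, miR-27b was by far the most abundant of these miRNAs. It had 28597, 33086 and 27654 before induction, 25891, 25277 and 26903 on 3 d, 38025, 35563 and 41238 on 6 d, and finally 48244, 44441 and 52190 on 9 d. All 9 d libraries thus lay above 6 d, those above 0 d, and 3 d was lowest, which is the day on which the PPARG row was highest. The mean signal of miR-27a-3p was 4452, 3506, 5007 and 5369 on 0, 3, 6 and 9 d, and again all 3 d libraries were below those of the other days. The means were 88.6, 126, 95.1 and 87.8 for miR-130a and 214, 222, 233 and 186 for miR-130b, with overlapping libraries. These values are a description, and a link between the miRNAs and PPARG was not tested.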

How the data were processed

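Total RNA of 12 libraries was grouped by the day in the sample labels. Trimming, mapping and assembly were done by the authors, and the deposited mRNA values are FPKM. The submitters' processing notes name HISAT2 2.0, StringTie 1.3.0 and Bowtie 0.12.2. The paper gives other versions of the aligners, and the sources also differ on the genome build. The deposited circRNA values used are a count of back-spliced reads. The deposited raw miRNA values are an estimated count in which the authors split shared reads, and the normalized values are a signal equal to the raw value times 1 factor per library. The lncRNA table and the scaled circRNA values were not used here, and circRNAs at PPARG are not reported here.

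FPKM hold no counts, so log2(FPKM + 0.1) was tested with limma 3.58.1 in R 4.3.3 (lmFit, contrasts.fit, eBayes; spread trended on mean level, not robust) for rows with a mean FPKM of at least 0.1. The fit held all 12 libraries with a mean per day, and p-values were adjusted by Benjamini–Hochberg within each of 6 comparisons. The fit was tested on simulated data. The study's methods give edgeR, which needs counts. Tables and figures used Python 3.11.15, pandas 2.3.3, NumPy 2.4.6 and Matplotlib 3.10.9. A gene was matched by its exact name, or else by the row that joins it with others.

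Named are the factors, from each list up to 3 called genes with the largest rise and fall at 3 d and at 9 d vs 0 d whose libraries do not overlap, the most abundant gene and those at 0 of other cell types, the 3 mRNAs most correlated with each factor (uncharacterised LOC genes left out), and the circRNA with the most reads per host. Paralogs, ADIPOQ, MYOD1, PCK1, DLK1, ENG and the miRNAs were added after the values were seen. The members and lists were chosen with earlier results of these data known. Alternatives varied the pseudocount (1, 0.01) and the minimum mean FPKM (none, 1), rescaled libraries by their median ratio, fitted the 6 libraries of a comparison alone, used the replicate number as a block, summed rows of the same gene, and left out each library. Counts without the PPARG row and counts without CEBPA were added after seeing the data.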

Additional observations from a re-analysis of the deposited data

How the results depend on the processing

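With a pseudocount of 1, the mRNAs called were 2184 at 3 d, 967 at 6 d and 888 at 9 d vs 0 d, 1688 from 3 d to 6 d, 1863 from 3 d to 9 d and 368 from 6 d to 9 d, in place of 3585, 1749, 1675, 2939, 3157 and 683. Testing only mRNAs with a mean FPKM of 1 or more gave 1114 for 9 d vs 0 d, with fewer genes tested. Rescaling raised the share of higher calls from 29.8% to 40.8% at 6 d and from 31.3% to 46.8% at 9 d vs 0 d. Of the factors, 2 in place of 1 were then called at 6 d vs 0 d, CEBPD being the second. Leaving out each library gave 1 to 2 factors in that comparison (2 without the third 0 d or the first 6 d library) and 0 to 1 from 6 d to 9 d (1 without the third 9 d library). The cause was not tested. Without the second or the third 3 d library CEBPA missed the filter and had no value. Over the log2 fold changes of the factors, 521 of 534 alternatives kept the side of the threshold, 7 passed it and 6 missed it. The sign changed in 1, EBF1 at 9 d vs 0 d after rescaling (0.03 in place of -0.18, not called in either). Leaving out a library entered this tally only by the lowest and highest value of each log2 fold change. The tally therefore misses some crossings without 1 library, which are given above with each factor. Omitting the PPARG row, chosen after seeing the data, left 2, 1, 2, 4, 4 and 0 of 8 factors called, and omitting CEBPA, also chosen then, left 2, 1, 2, 4, 3 and 0. No pairing of the libraries by replicate number was visible. The deviations of libraries with the same number correlated at -0.098 to 0.112 (18 pairs) and of those with other numbers at -0.19 to 0.183 (36 pairs). With 3 libraries per day, such values cannot show that a number stands for no shared culture or animal. With a replicate block limma called 3591, 1746, 1683, 2933, 3138 and 657 mRNAs and 2, 1, 2, 4, 4 and 0 factors.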
